A study of Mus musculus with 5 samples.

Results

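The PI3K-AKT-mTOR pathway genes were described in cancer cells of mouse lung metastases. They were the 99 genes left of the 105 in the deposited Hallmark PI3K-AKT-mTOR signalling set once Eif4e, the cell-cycle gene Cdk1 and the endoplasmic-reticulum and stress genes Calr, Hsp90b1, Ddit3 and Trib3 were taken out, of 23771 genes in the table. The set was selected on results of these same libraries, in which its genes lay low in the contrast described here, so every difference below is given as a description with no test.

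PI3K at the plasma membrane makes the lipid PIP3, which recruits the kinase AKT. AKT holds the TSC complex in check, which frees the small GTPase Rheb to switch on the mTORC1 kinase complex, a promoter of protein synthesis and cell growth. In breast cancer the pathway is often activated by mutation. Much of its control is through phosphorylation, which RNA does not show.

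The cells came from lungs with metastases of 4T1, a mouse mammary carcinoma line that here expressed the surface marker CD90.1, in female BALB/c mice, and were profiled by single-cell RNA sequencing. From 6 weeks of age the mice were given medium that 4T1 tumors had conditioned (tumor-secreted factors, TSF) or control medium (CM), as 200 µL injections 3 times a week for 3 weeks. Both groups then received 25000 cancer cells intravenously, and lungs were taken at day 16, at 11 weeks of age. The question was whether metastases in TSF-primed lungs differed from those in control lungs in genes of this pathway. The other libraries, of day 11, were not used for the genes, since the deposited gene values covered day 16 only.

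Each group had 1 library, made from the pooled lungs of 3 mice. It held 29 cancer cells of 3835 cells in CM and 139 of 5197 in TSF, by the authors' annotation. Median UMIs (unique molecular identifiers, counted RNA molecules) per cancer cell were 27679 in CM and 26615 in TSF, and the median number of genes per cell was 5174 and 4745. The 6 epithelial markers summed to 30.7 CP10k (UMIs per 10000 UMIs of a cell, averaged over the cancer cells) in CM and 30.6 in TSF, although Epcam alone was found in 27.6% of the CM cells and in 68.3% of the TSF cells. The cancer cells fell into the authors' fine clusters 120 and 131, and cluster 120 held 20.7% of them in CM (95% interval 7.99 to 39.7) and 61.2% in TSF (52.5 to 69.3). The 20 leukocyte markers summed to 0.0290 CP10k in CM, where 17 were at 0, and to 1.14 in TSF, where 8 were at 0. Immediate-early genes such as Atf3 and Egr1, which respond within minutes to stimuli and to tissue dissociation, summed to 104 CP10k over 7 genes in CM and to 37.6 in TSF. The part of these differences in the pathway genes was not tested. No cell barcode was shared between the cancer cells of the libraries.

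Depth in the CM library was uneven. The shallowest of its 29 cells held 973 UMIs and 550 genes, and because the mean gives each cell equal weight, 1 UMI in that cell added 0.354 CP10k to the CM mean. The next shallowest held 5962 UMIs, and there 1 UMI added 0.0578. In TSF 1 UMI of the shallowest cell added 0.0791. Of the CM cells 27.6% had under 10000 UMIs, against 10.1% of the TSF cells. Shares of cells with a UMI do not carry that weight, and so both quantities are given for the list as a whole and for many of the genes named. Intervals on shares are exact Clopper-Pearson intervals at the 95% level that cover counting error only, and with 1 library a group there is no check over mice.

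Of the 99 genes, 76 were found in at least 10% of the cancer cells as a mean of both libraries and are called measured below. Another 13 had a UMI in fewer cells. The remaining 10 had none in any cancer cell, among them Prkaa2, Adcy2, Gna14, Map2k6, Mapk10, Sla, Fgf17, Fgf22 and Fgf6. For those a count of 0 allows a share of up to 10.3% of the CM cells and 2.16% of the TSF cells by a limit of 3 cells, and the exact intervals reach 11.9% and 2.62%.

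The measured genes were on the whole a little lower in TSF than in CM. The log2 ratio used here is that of mean CP10k plus a pseudocount of 1, TSF over CM, which understates differences of low genes. It was below 0 for 56 of 76 genes (73.7%), beside 60.2% of the 9533 genes that passed the same filter. Its median was -0.11 over the pathway genes and -0.04 over all 9533 genes. The values ran from -0.67 for Cfl1 to 0.28 for Akt1. By 1.5-fold or more, 3 of 76 genes (3.95%) were lower in TSF, beside 2.09% of all genes, and they were Cfl1, Actr3 and Sfn. None was higher by as much, beside 0.808% of all genes. Map2k3, at -0.57, lay just outside that limit and Actr3, at -0.59, just inside it.

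**Figure D1:**
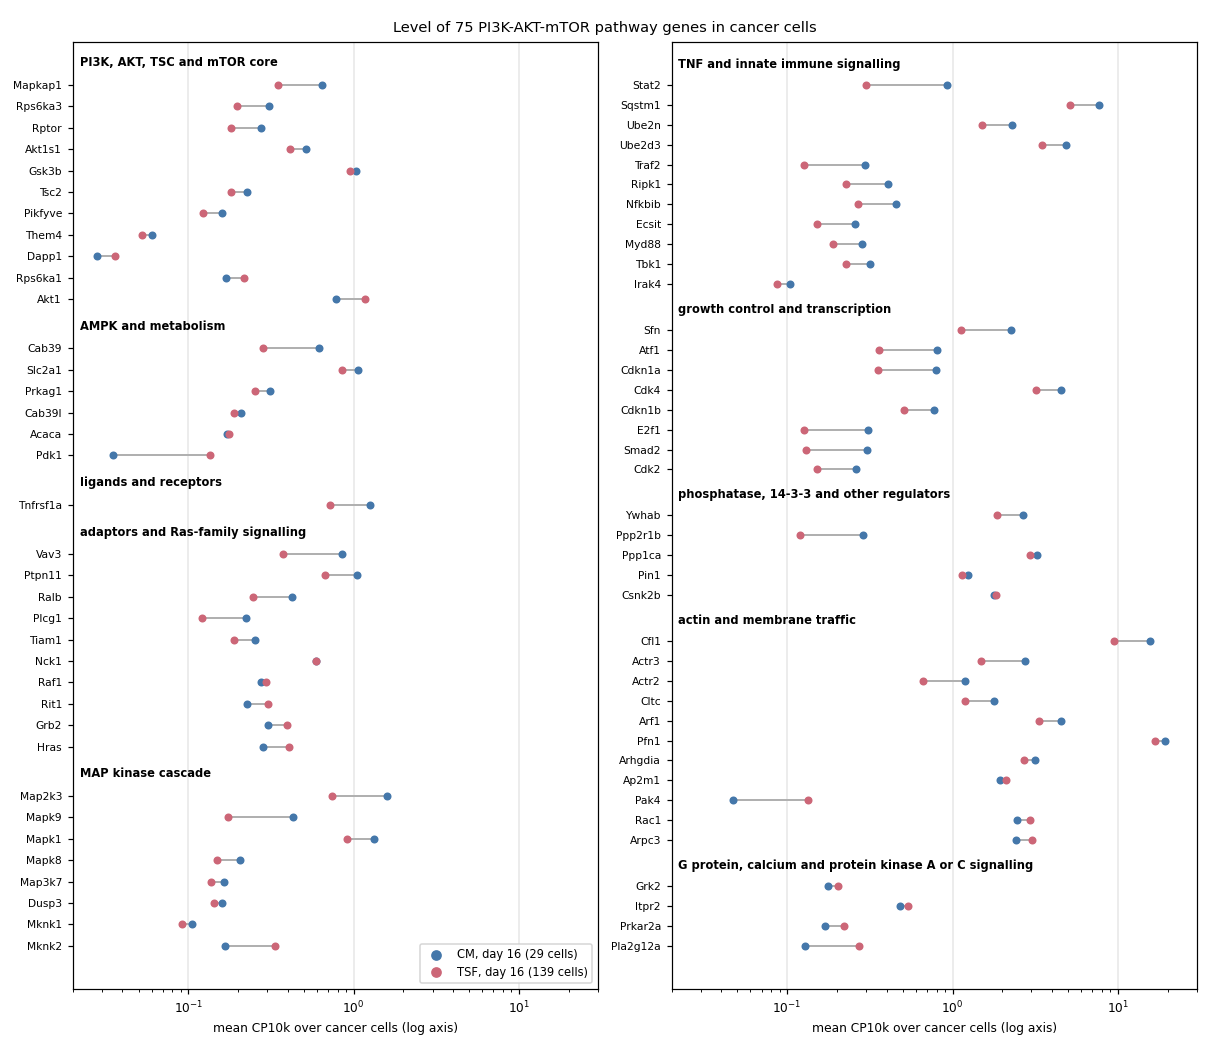
Mean CP10k over cancer cells (horizontal log axis) of 75 of the measured genes, grouped by role, with CM (29 cells, 1 library) in blue and TSF (139 cells, 1 library) in red. Most lines run to the left from CM to TSF, with Cfl1 at 15.6 in CM and 9.42 in TSF, while Akt1 runs the other way, from 0.781 to 1.16.

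A smaller pseudocount of 0.1 gave more room to genes of low level. With it 20 of 76 genes (26.3%) were lower by 1.5-fold or more, beside 17.7% of all genes, and 4 (5.26%) were higher, beside 7.19% of all genes. The 4 higher genes were Pdk1, Pla2g12a, Mknk2 and Pak4. The lowest log2 ratio on this scale was -1.36, for Stat2.

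The share of cells with a UMI lay nearer to its background. It was lower in TSF for 41 of 76 genes (53.9%), beside 50.3% of all genes. Of the 56 genes with a lower mean in TSF, 38 also had a lower share of cells and 18 had a higher one. Among the cells with a UMI, mean CP10k was lower in TSF for 57 of 76 genes (75%), beside 64% of the 9522 genes with a UMI in both libraries. Its log2 ratio had a median of -0.41 over the pathway genes and of -0.17 over all genes. The ratio of shares, on the same log2 scale, had a median of -0.0036 over the pathway genes, beside -0.0022 over the 9522 genes. Both ratios depend on depth, and 27.6% of the CM cells had under 10000 UMIs, against 10.1% of the TSF cells. The part of depth in them was not tested.

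**Figure D2:**
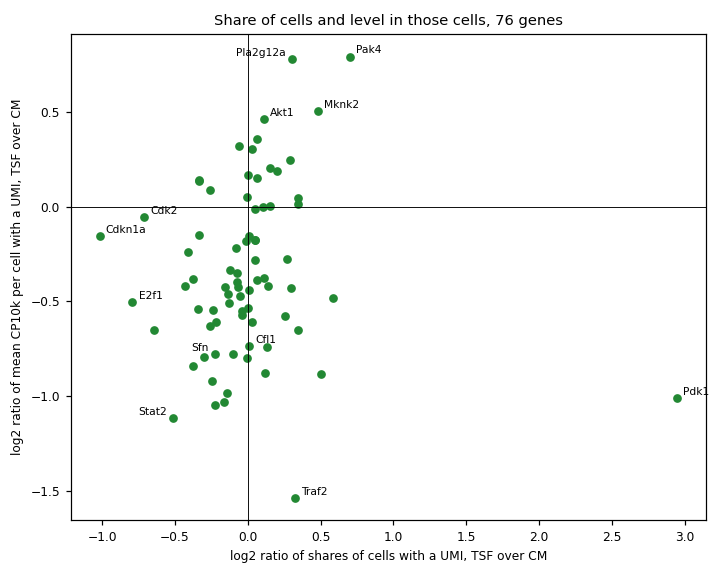
Log2 ratio, TSF over CM, of the share of cancer cells with a UMI (horizontal) against that of mean CP10k per cell with a UMI (vertical), 1 point per measured gene. Points spread to both sides of 0 on the horizontal axis and 57 of 76 lie below 0 on the vertical axis, while Pdk1 stands far to the right and Cdkn1a farthest to the left.

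The intervals of the shares were apart for 2 genes. Cdkn1a, which encodes the cyclin-dependent kinase inhibitor p21, was found in 19 of 29 CM cells (65.5%, 45.7 to 82.1) and in 45 of 139 TSF cells (32.4%, 24.7 to 40.8). Its mean was 0.793 CP10k in CM and 0.352 in TSF, a log2 ratio of -0.41. It was the 1 pathway gene of 76 (1.32%) with intervals apart and a lower share in TSF, beside 1.56% of all genes. Pdk1, a kinase that turns pyruvate away from mitochondrial oxidation and is not the PDPK1 kinase that phosphorylates AKT, went the other way. It was found in 1 of 29 CM cells (3.45%, 0.0873 to 17.8) and in 37 of 139 TSF cells (26.6%, 19.5 to 34.8). Its mean was 0.0351 CP10k in CM and 0.134 in TSF, a log2 ratio of 0.13. It was likewise 1 of 76 (1.32%) with intervals apart and a higher share, beside 1.16% of all genes. Neither count stood away from its background.

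Promoter sequences of 4 genes that the description turns on are shown, from 250 bases before to 50 bases after an annotated start: Cdkn1a and Pdk1 for their shares, Akt1 as the core kinase and Stat2 for the lowest ratio at the smaller pseudocount. They are RefSeq sequences on GRCm38.p6, written 5′ to 3′ on the gene's strand, and 84 of the 99 genes had an entry. Capitals mark a match to a searched motif.
Cdkn1a, first listed start, chr17:29090729-29091028, plus strand: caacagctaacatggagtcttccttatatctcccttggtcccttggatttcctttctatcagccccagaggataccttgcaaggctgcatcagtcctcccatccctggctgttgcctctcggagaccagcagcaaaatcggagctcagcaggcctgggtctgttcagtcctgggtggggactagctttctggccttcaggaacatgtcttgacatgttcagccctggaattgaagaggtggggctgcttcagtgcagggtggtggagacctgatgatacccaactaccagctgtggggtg
Cdkn1a, second listed start, chr17:29093519-29093818, plus strand: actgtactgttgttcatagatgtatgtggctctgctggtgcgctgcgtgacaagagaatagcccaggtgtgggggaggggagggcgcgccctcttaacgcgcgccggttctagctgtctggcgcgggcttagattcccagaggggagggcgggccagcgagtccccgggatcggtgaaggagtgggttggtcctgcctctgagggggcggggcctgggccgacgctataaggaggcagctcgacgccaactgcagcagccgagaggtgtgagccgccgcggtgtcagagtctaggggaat
Pdk1, first listed start, chr2:71872974-71873273, plus strand: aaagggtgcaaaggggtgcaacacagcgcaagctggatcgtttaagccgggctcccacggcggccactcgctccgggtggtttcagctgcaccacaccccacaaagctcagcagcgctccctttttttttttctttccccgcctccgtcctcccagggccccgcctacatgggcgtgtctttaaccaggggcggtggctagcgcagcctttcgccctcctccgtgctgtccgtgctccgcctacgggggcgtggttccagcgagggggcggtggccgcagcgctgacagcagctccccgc
Akt1, first listed start, chr12:112674835-112675134, minus strand: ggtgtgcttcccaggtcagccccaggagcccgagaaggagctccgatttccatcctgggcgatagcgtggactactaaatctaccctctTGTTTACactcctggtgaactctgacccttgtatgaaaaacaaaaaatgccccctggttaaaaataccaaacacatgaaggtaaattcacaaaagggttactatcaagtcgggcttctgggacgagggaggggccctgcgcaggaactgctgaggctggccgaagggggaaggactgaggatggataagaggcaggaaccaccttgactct
Stat2, chr10:128270248-128270547, plus strand: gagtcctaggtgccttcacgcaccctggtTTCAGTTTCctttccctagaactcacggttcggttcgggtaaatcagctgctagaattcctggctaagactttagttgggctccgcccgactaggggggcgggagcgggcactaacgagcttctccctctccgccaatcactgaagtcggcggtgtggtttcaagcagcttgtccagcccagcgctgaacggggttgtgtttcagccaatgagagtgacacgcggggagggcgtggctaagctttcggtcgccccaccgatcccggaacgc

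The motifs searched, on both strands, were AP-1 (TGANTCA), the hypoxia response core (ACGTG), FOXO (TGTTTAC), CRE (TGACGTCA), an interferon-response core (TTCNNTTTC) and GAS (TTCNNNGAA), of which the last pair can overlap. The window of the first listed Akt1 start held a FOXO match 161 bases before the start, and FOXO factors are known targets of AKT. The window of the second listed Akt1 start, not printed, held no match to any of the motifs. A match to FOXO stood in 2.63% of the 114 promoters of the pathway genes and in 3.65% of all 32851 promoters. The Stat2 window held an interferon-response core 221 bases before the start, and that core stood in 10.5% of the pathway promoters and 8.56% of all. The AP-1 letters stood in 3.51% and 7.81%, the hypoxia core in 19.3% and 19.6%, CRE in 1.75% and 1.79%, and GAS in 6.14% and 8.30%. The Cdkn1a and Pdk1 windows printed held none of these letters.

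Among the core genes, from PI3K to mTOR, most differences were small. Of 13 core genes 12 were measured, 8 of them below 0 (66.7%, beside 60.2% of all genes), with a median log2 ratio of -0.05. Akt1, the kinase the pathway is named for, was found in 23 of 29 CM cells (79.3%, 60.3 to 92.0) and in 119 of 139 TSF cells (85.6%, 78.7 to 91.0). Its mean was 0.781 CP10k in CM and 1.16 in TSF. At 0.28 its log2 ratio was the highest of the measured pathway genes, short of 1.5-fold. Pik3r3, a regulatory subunit of PI3K, had a UMI in 1 CM cell and 4 TSF cells and did not pass the filter.

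The 3 mTOR complex subunits in the set were below 0. Mapkap1, a subunit of mTORC2, the complex that phosphorylates AKT, was found in 19 CM cells and 72 TSF cells and had means of 0.646 CP10k in CM and 0.351 in TSF, a log2 ratio of -0.29. That was the lowest of the core. Rptor, which brings substrates to mTORC1, had means of 0.276 and 0.182 CP10k, a log2 ratio of -0.11. Akt1s1, an inhibitory mTORC1 subunit that AKT phosphorylates, had 0.514 and 0.412 CP10k, and its share of cells was higher in TSF (61.9%) than in CM (51.7%). For each of these the intervals of the shares overlapped. The signs for Mapkap1 and Akt1s1 hang on the shallowest CM cell. Were it left out, and were it to hold 1 UMI of the gene, the log2 ratio would be 0.05 for Mapkap1 and 0.28 for Akt1s1. Were it to hold 0 UMIs, the ratios would be -0.31 and -0.12. The CM mean of Rptor was too low for that cell to hold a UMI of it.

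Of the other core genes, Tsc2, a subunit of the TSC complex, had means of 0.226 CP10k in CM and 0.180 in TSF, and Gsk3b, a kinase that AKT inhibits, had 1.04 and 0.947. The ribosomal S6 kinases of the RSK family gave log2 ratios of 0.06 for Rps6ka1 and -0.13 for Rps6ka3. Pikfyve, a lipid kinase of endosomes, gave -0.05. Them4, a protein that binds AKT, gave -0.01, and Dapp1, an adaptor that binds PI3K lipids, gave 0.01. No core gene had share intervals that were apart.

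**Figure D3:**
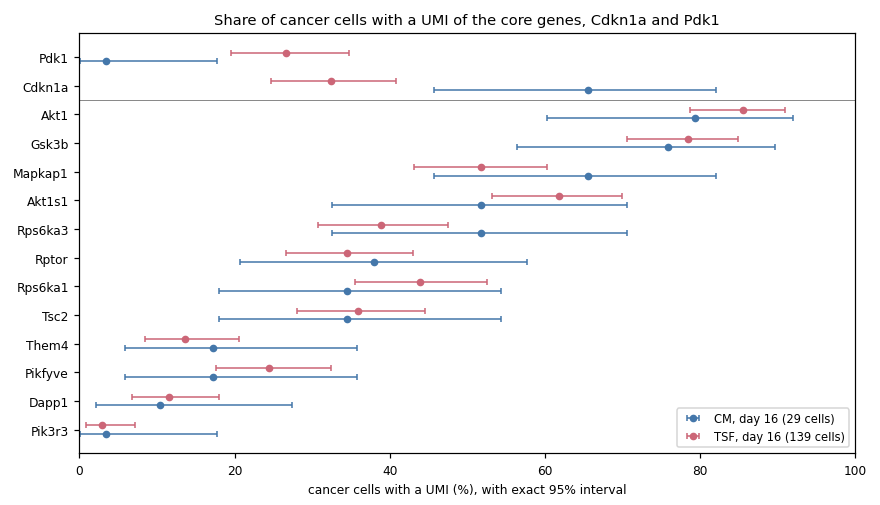
Share of cancer cells with a UMI (horizontal axis, percent) in CM (blue, 29 cells) and TSF (red, 139 cells), with exact 95% intervals, for 12 core genes below the line and for Cdkn1a and Pdk1 above it. The intervals overlap for the 12 core genes drawn and are apart for Cdkn1a (65.5% in CM, 32.4% in TSF) and Pdk1 (3.45% and 26.6%).

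Pathway genes outside the set were taken from a textbook list, and 49 of the 58 in the table passed the filter. They were closer to all genes than the set was, with 32 below 0 (65.3%, beside 60.2% of all genes) and a median log2 ratio of -0.02. Mtor itself was found in 12 CM cells and 71 TSF cells, with means of 0.218 and 0.277 CP10k, a log2 ratio of 0.07. Rheb, the activator of mTORC1, had means of 1.89 and 2.05 CP10k, a log2 ratio of 0.08. The ratio was 0.00 for Rictor, which defines mTORC2, and -0.02 for Tsc1. The PI3K genes gave 0.04 for Pik3ca, -0.06 for Pik3cb and 0.01 for Pik3r1. Pdpk1, which phosphorylates AKT, gave -0.11 and Akt2 gave -0.16.

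One of these 49 genes was past 1.5-fold. Sesn3, a sestrin that restrains mTORC1 when amino acids are short, was found in 21 CM cells (72.4%) and 112 TSF cells (80.6%). Its mean was 2.42 CP10k in CM and 1.24 in TSF, a log2 ratio of -0.61. In CM 1 UMI of the shallowest cell adds 0.354 CP10k, and the ratio of Sesn3 was not recomputed without that cell. Sesn3 is 1 of 49, beside 2.09% of all genes. None was higher by 1.5-fold. At the pseudocount of 0.1, 6 of 49 were lower, beside 17.7% of all genes, and 1 was higher, beside 7.19%. That 1 was Lamtor4, a subunit of the Ragulator scaffold that holds mTORC1 at the lysosome, with means of 0.558 and 1.07 CP10k.

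The 3 genes lower by 1.5-fold or more came from the actin and growth control groups. Cfl1, cofilin, which severs actin filaments, was found in 28 of 29 CM cells and 135 of 139 TSF cells. Its mean was 15.6 CP10k in CM and 9.42 in TSF, a log2 ratio of -0.67. Actr3, a core subunit of the Arp2/3 complex that nucleates branched actin, was found in 28 CM cells and 125 TSF cells. Its mean was 2.75 and 1.49 CP10k, a log2 ratio of -0.59. Sfn, the 14-3-3 sigma protein of epithelial cells, was found in 21 CM cells and 86 TSF cells, with means of 2.25 and 1.12 CP10k and a log2 ratio of -0.62.

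The shallowest CM cell could hold part of these differences. Were it left out, and were it to hold 1 UMI of the gene, the log2 ratio would be -0.69 for Cfl1 and -0.48 for both Actr3 and Sfn, so that 1 UMI there would end the call for the last pair. For Cfl1 it would take 5 UMIs, where the CM mean applied to a cell of that depth gives 1.52. The counts of single cells were not used here, so what this cell held is not known. For 35 of 76 genes the CM mean lay under the 0.354 CP10k that 1 UMI in it would add, so that it held none. For 21 genes the CM mean exceeded the TSF mean by that much or more.

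Actin and membrane traffic genes were otherwise split. Of 11 measured, 7 were below 0 (63.6%, beside 60.2% of all genes), with a median of -0.18. Actr2, the partner of Actr3 in the Arp2/3 complex, had means of 1.19 CP10k in CM and 0.666 in TSF. Arpc3, a smaller subunit of the same complex, had 2.41 and 3.04, a log2 ratio of 0.24 in the other direction. Rac1, a GTPase that drives actin at the cell edge, gave 0.19. Pfn1, profilin, which supplies actin monomers and was found in all 29 CM cells and in 138 TSF cells, had means of 19.3 and 16.9 CP10k, a log2 ratio of -0.18.

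Growth control and transcription genes were all below 0, 8 of 8, beside 60.2% of all genes, with a median of -0.31. Besides Cdkn1a and Sfn these included both cell cycle kinases and their inhibitors. Cdk4, which drives cells out of G1, had means of 4.50 CP10k in CM and 3.20 in TSF, a log2 ratio of -0.39, and was found in 28 CM cells and 128 TSF cells. Cdkn1b, the inhibitor p27, had 0.770 and 0.506, although its share of cells was higher in TSF (71.9%) than in CM (65.5%). Atf1, a transcription factor that binds CRE sites, had 0.801 and 0.358 CP10k.

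**Figure D4:**
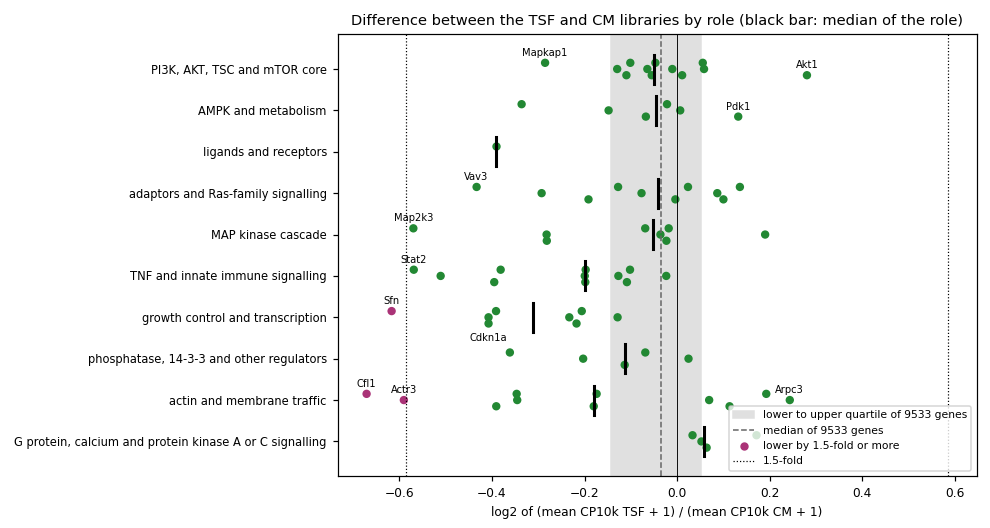
Log2 ratio of mean CP10k plus 1, TSF over CM (horizontal axis), of the 76 measured genes by role, with a black bar at each role's median, a grey band for the lower to upper quartile of all 9533 genes, a dashed line at their median and dotted lines at 1.5-fold. TNF and innate immune genes (11 of 11) and growth control genes (8 of 8) lie below 0, G protein genes (4 of 4) above it, and the 3 purple points past the left dotted line are Cfl1, Actr3 and Sfn. Of all 9533 genes, 60.2% lie below 0.

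TNF and innate immune signalling genes were likewise all below 0, 11 of 11, beside 60.2% of all genes, with a median of -0.20. Sqstm1, the autophagy receptor p62, was found in all 29 CM cells and in 135 TSF cells. Its means were 7.73 CP10k in CM and 5.13 in TSF, a log2 ratio of -0.51. Stat2, which carries interferon signals to the nucleus, was found in 17 CM cells (58.6%, 38.9 to 76.5) and 57 TSF cells (41.0%, 32.7 to 49.7). Those intervals overlap. Its means were 0.928 and 0.299 CP10k, a log2 ratio of -0.57. Without the shallowest CM cell, the ratio of Stat2 would be -0.59 if that cell held 0 UMIs of it and -0.29 if it held 1. Traf2, an adaptor of TNF receptors, was found in a larger share of the TSF cells (30.2%) than of the CM cells (24.1%) and yet had a lower mean, 0.127 against 0.294 CP10k. Its CM mean was too low for the shallowest cell to hold a UMI of it. Tnfrsf1a, the receptor for TNF, was found in 23 CM cells and 110 TSF cells, with means of 1.26 and 0.722 CP10k, a log2 ratio of -0.39.

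Tnfrsf1a was the only one of the 10 ligands and receptors that was measured. Egfr, a growth factor receptor upstream of PI3K, did not pass the filter and had a UMI in 1 CM cell and 16 TSF cells. That 1 CM cell gave the whole CM mean of 0.116 CP10k, above the TSF mean of 0.0717. Cxcr4, a chemokine receptor, had a UMI in no CM cell and in 6 TSF cells.

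The MAP kinase genes were below 0 in 7 of 8 measured (87.5%, beside 60.2% of all genes), with a median of -0.05. Map2k3, which activates p38, was found in 26 CM cells and 101 TSF cells, with means of 1.58 CP10k in CM and 0.740 in TSF. Mknk2, a kinase that phosphorylates the cap-binding protein eIF4E, was the exception, with means of 0.168 and 0.332 CP10k and a log2 ratio of 0.19. Adaptors and Ras-family genes were mixed, with 6 of 10 below 0 (60%, near the share of all genes) and a median of -0.04. Ptpn11, the phosphatase SHP2, had means of 1.05 and 0.673 CP10k, a log2 ratio of -0.29. Vav3, an exchange factor for Rac, had 0.854 and 0.373, and Hras had 0.282 and 0.408.

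AMPK and metabolism genes were below 0 in 4 of 6 (66.7%, beside 60.2% of all genes), with a median of -0.04. Slc2a1, the glucose transporter GLUT1, was found in 19 CM cells and 86 TSF cells, with means of 1.06 and 0.855 CP10k, a log2 ratio of -0.15. Pdk1, described above, is of the same group. The 5 phosphatase and regulator genes had 4 below 0 (80%, beside 60.2% of all genes) and a median of -0.11. Ppp1ca, a catalytic subunit of protein phosphatase 1, had means of 3.24 and 2.92 CP10k. G protein, calcium and kinase A or C genes were above 0 in 4 of 4, where 60.2% of all genes were below 0, with a median of 0.06. Itpr2, a calcium channel of the endoplasmic reticulum, had means of 0.481 and 0.536 CP10k. No role's median changed sign when ribosomal protein genes, 18.6% of CP10k in CM and 23.9% in TSF, were left out of the total. Centring the ratios on the median of all genes changed no sign of a role's median either, but lowered some counts below 0. They became 5 of 8 for MAP kinase, 3 of 6 for AMPK and metabolism and 5 of 10 for adaptors. For the core genes it was 7 of 12 and for TNF and innate immune genes 10 of 11, beside 50.0% of all genes.

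Genes of the set known mostly from leukocytes were near absent. Of 8, 7 had a UMI in some cancer cell and Dapp1 alone passed the filter. Lck, a T cell kinase, was found in 0 CM cells and 9 TSF cells, Il2rg, a cytokine receptor chain, in 2 and 4, and Prkcb, a protein kinase C, in 2 and 3. Camk4 was found in 2 CM cells and 0 TSF cells, and Il4 and Fasl in 0 and 1 each. The intervals of the Lck shares overlapped (0 to 11.9% in CM, 3.00 to 11.9% in TSF). The leukocyte markers above did not move as one. The B cell markers summed to 0.0184 CP10k in CM and 0.0136 in TSF, while the other leukocyte lists summed to more in TSF. Most of the TSF sum came from S100a8 (0.300 CP10k, in 2 cells) and S100a9 (0.685, in 4 cells). The part of leukocyte RNA in the Lck values was not tested.

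Some pathway genes are also in other Hallmark sets of the deposit. The 14 measured genes shared with the mTORC1 signalling set had 10 below 0 (71.4%, beside 60.2% of all genes) and a median of -0.17. The 4 shared with the interferon gamma response set, which are Stat2, Ripk1, Myd88 and Cdkn1a, were all below 0, with a median of -0.30. The 3 shared with the set for TNF signalling through NF-kB, which are Map2k3, Sqstm1 and Cdkn1a, had a median of -0.51. The 59 genes in none of these sets had 43 below 0 (72.9%, beside 60.2% of all genes) and a median of -0.10. These sets as a whole had medians of -0.06 over 182 genes, -0.26 over 156 and -0.20 over 154. In the same order, 60.4%, 82.7% and 75.3% of their genes were below 0. In each case the shared genes had the lower median, over 14, 4 and 3 genes. The pathway set was selected on results in which its genes lay low, so this comparison cannot be told apart from that selection. The cases are not separate either, since Map2k3, Sqstm1 and Cdkn1a are also in the mTORC1 set and Cdkn1a is in all 3 sets.

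The medians were also taken by level. Ranges of level were set after the values were seen, on the mean of both libraries. Under 0.5 CP10k the 43 pathway genes had a median log2 ratio of -0.05, beside -0.03 for all genes in that range. A pseudocount of 1 holds ratios of such low genes near 0, and with 0.1 their medians were -0.22 and -0.12. From 0.5 to under 2 CP10k the median was -0.32 for 20 genes, beside -0.10 for all. At 2 CP10k or more it was -0.35 for 13 genes, beside 0.02 for all genes there.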

How the data were processed

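Lungs were dissociated, cells of 3 mice per group were pooled, and libraries were made with the 10x Genomics 5′ kit. The authors mapped reads with Cell Ranger to mm10, build GRCm38.p6, extended by the CD90.1 sequence, imported counts with Seurat 4.1.0, corrected them for ambient RNA with a customised SoupX, and kept cells with at least 800 UMIs. Cancer cells were those of the authors' annotation. The authors put doublets in a class of their own, and no further check for doublets among the cancer cells was made here. The deposited cell table gives UMI counts per cell after that correction, and the percent of mitochondrial UMIs. The deposited gene table gives, for each library, the mean signal in CP10k over cancer cells, the number of cells with a UMI and the percent of cells. It also holds the authors' log2 fold changes, p-values and q-values, and another table their enrichment scores, and none of these was used. The cell table held 2 libraries that are not described, which were not used. No matrix of single cells was used, so means carry no error and shares were not thinned to equal depth.

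From the deposited values the log2 ratio of mean CP10k plus 1, TSF over CM, was computed for genes in at least 10% of cells as a mean of both libraries. A difference of 1.5-fold was counted as lower or higher. With 1 library per group no test was made. Shares carry Clopper-Pearson 95% intervals, and a count of 0 allows up to 3 counts of the total. The pathway genes and lists were chosen with earlier results of these data known. Genes named were the core genes, those past 1.5-fold or with share intervals apart, the gene of highest mean in each role, those known mostly from leukocytes, and a fixed few of the other pathway genes. The others named were chosen after their values were seen. Some genes are not reported by name here, though counts and medians include them. Faslg was matched as Fasl, its mouse symbol. Alternatives were other pseudocounts, filters, scalings, thresholds and gene lists. Computations used Python 3.11.15 with scipy 1.17.1, pandas 2.3.3, numpy 2.4.6 and, for figures, matplotlib 3.10.9.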

Additional observations from a re-analysis of the deposited data

How the results depend on the processing

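The count of 3 pathway genes lower by 1.5-fold or more (2.09% of all genes) became 20 with a pseudocount of 0.1 (17.7% of all genes), 28 with 0.01 (27.4%), 1 when ratios were centred on the median of all genes (1.80%), 18 with a threshold of 0.32 on the log2 scale (8.16%) and 0 with one of 2-fold (0.566%). The count of 0 higher became 4 with a pseudocount of 0.1 (7.19% of all genes) and 4 with 0.01 (13.4%). The median log2 ratio of -0.11 became -0.29 and -0.42 with those pseudocounts, -0.069 with no filter, -0.41 for CP10k per cell with a UMI and -0.0036 for shares of cells. Over all genes these medians were -0.13 and -0.18, 0.0011, -0.17 and -0.0022, in the same order. The percent of genes below 0, 73.7%, was 53.9% for shares of cells, beside 50.3% of all genes. The 1 gene with share intervals apart and a higher share, Pdk1, did not pass a filter of 25% of cells, which left 0. An alternative chosen after seeing the data left out the shallowest CM cell. Taken to hold 0 UMIs of each gene, it gave 5 genes lower (2.47% of all genes). Taken to hold 1 UMI of each gene whose mean allows it, it gave 1 lower (1.31% of all genes) and 1 higher, Akt1 (2.83%), a median of -0.035 and 59.2% below 0, beside 41.7% of all genes; that cell held 550 genes of 4217 so allowed, so the setting overstates what it held. The count of genes with intervals apart and a lower share was 1, Cdkn1a, under each of the 6 alternatives tried for it. None of these could have removed Cdkn1a. Other filters and gene lists leave its intervals as they were, and Wilson or 90% intervals are narrower. Over all genes the share so called was 2.10% with Wilson intervals and 2.78% with 90% intervals.

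No paired analysis was possible because each group had 1 library. No result carries an error over mice, and with 29 CM cells the shares have wide intervals. In CM, a difference of 0.354 CP10k can be 1 UMI of 1 cell.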
